A study of Rattus norvegicus with 18 samples.

Results

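Cytosolic ribosomal proteins are the protein components of the ribosome outside mitochondria, and their genes were described here in cultured rat aortic rings left untreated or given angiopoietin-1 (Ang1) or vascular endothelial growth factor (VEGF). Members were the probe sets annotated with 1 symbol made of Rpl or Rps and a number, with an optional suffix, or with Rplp0, Rplp1, Rplp2 or Rpsa. Rps6k kinase genes, pseudogenes and mitochondrial ribosomal genes were left out. The rule used names only and no measured value. It found 43 of the 13811 genes named on the arrays. On array A (Affymetrix RAE230A) they had 47 of 15923 probe sets, which stand for 42 genes, and on array B (RAE230B) 3 of 15333, for 3 genes. A further 32 probe sets of array A carry several symbols, at least 1 of them of a ribosomal protein, and 29 ribosomal protein genes were represented only in that way there. Rplp1, Rplp2 and Rps27a had no probe set of their own and were not analysed here.

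The rings were cut 2 mm wide from the thoracic aorta of male Fisher 344 rats, which the sample labels give as 5 weeks old, and kept in serum-free medium. Untreated rings were cultured for 14 days. At day 13 other rings received recombinant human VEGF at 10 ng/ml, or recombinant human Ang1 at 100 ng/ml together with a poly-His antibody at 5 µg/ml, an agent the untreated and VEGF rings did not get. RNA was taken 20 h later per the sample labels and 18 h later per the design text. Each RNA pooled 4 to 6 rings. There were 3 RNAs per group, 9 in all, and each was read on both array types, which gave 18 samples. The design text has the rings of each of 3 animals split over the groups, without saying which replicate number is which animal. The p-values measure the spread between these RNAs.

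A ribosome has a small 40S subunit, which reads the messenger RNA, and a large 60S subunit, which forms the peptide bond. Growing cells make the ribosomal proteins in matched amounts. Many of their mRNAs begin with a run of pyrimidines, the 5′ terminal oligopyrimidine (TOP) tract, through which the kinase complex mTORC1 sets their translation. That control acts on protein synthesis and need not show in mRNA levels, which are what the arrays measure.

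Promoter sequence was available for 36 of the 43 genes in the RefSeq table for build GRCr8. A TOP-like tract, taken here as a C at the annotated start followed by at least 4 further C or T, stood in 11 of these 36 (30.6%) and in 2.63% of all 33469 promoters. The 11 genes were Rpl14, Rpl19, Rpl22, Rpl28, Rpl34, Rpl35, Rpl35a, Rpl39, Rplp0, Rps15 and Rps3a, with tracts of 5 to 10 bases. A run of pyrimidines that begins off the annotated start was not counted, as in Rps23, where a T comes first. The count thus depends on the annotated start, and a gene outside it may still have a TOP tract. The 6 windows printed here hold 30 bases before the annotated start and 20 from it, and any TOP-like tract is in capitals. They belong to genes whose values are described further on. Rplp0 (chr12:46718371-46718420, minus strand), Rpl14 (chr8:129163590-129163639, plus strand) and Rps3 (chr1:163195757-163195806, minus strand) were low in a pair of libraries. Rpl34 (chr2:221962264-221962313, minus strand), Rpl35 (chr3:43165902-43165951, minus strand) and Rps28 (chr7:15311314-15311363, minus strand) were lower in every VEGF RNA than in every untreated RNA after normalisation.
Rplp0: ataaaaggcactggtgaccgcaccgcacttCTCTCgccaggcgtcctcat
Rpl14: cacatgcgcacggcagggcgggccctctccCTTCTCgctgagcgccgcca
Rps3: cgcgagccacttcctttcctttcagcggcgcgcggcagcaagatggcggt
Rpl34: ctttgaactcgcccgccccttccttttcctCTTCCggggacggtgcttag
Rpl35: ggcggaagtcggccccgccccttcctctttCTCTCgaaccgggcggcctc
Rps28: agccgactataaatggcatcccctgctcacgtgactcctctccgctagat

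Both sets hold members with a tract and members without one at the annotated start. Over the whole windows of 250 bases before and 50 from the start, read on both strands, CCGGAAG was found in 22.2% of the 36 member promoters and in 8.75% of all promoters. The letters AAGATGG were found in 22.2% and 7.01%. TATAAA was found in 13.9% and 14.2%. A longer motif searched in the same windows, whose letters are not printed here, was found in 11.1% and 0.373%. A match is a description of letters, not of binding.

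Of the 9 RNAs, 2 stood apart from the rest on array A, untreated replicate 2 and Ang1 replicate 2. Their median correlations with the other arrays were 0.791 and 0.689, against 0.875 to 0.945 in the other 7. The Gapdh 3′ control probe set gave 64.4 and 446.9, against 2218 to 3247. By the labels only untreated replicate 1 was labelled in a two-cycle procedure. Deposited signals of cell type markers were 3524 to 6429 for fibroblast Col1a1, 739 to 3791 for smooth muscle Myh11 and 196 to 563 for endothelial Kdr. Macrophage markers ran from 25.8 to 145 (C1qb) to 5667 to 23696 (Lyz2). Lymphocyte markers ran from 4.8 to 20.3 (Cd79b, of B cells) to 59.9 to 137.9 (Cd3g). The erythroid markers Hbb and Alas2 gave 8.7 to 65.4 and 10.9 to 150.5. Signals of different probes are not comparable. In RNA from whole rings, fewer cells of a type and less RNA per cell cannot be told apart.

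On array A 30 of the 47 member probe sets lay among the 158 brightest, the top 1% by mean normalised signal. Probes differ in how well they bind, so this ranks signals and not transcripts. A filter at the 40th percentile kept 44 member probe sets of 40 genes. Those left out were Rpl30 (22.7 to 53.5 units), Rpl3l, a paralog restricted to striated muscle (2.6 to 70.5), and 1 of the 2 Rpl14 probe sets (9.9 to 91.6). Deposited signals were normalised by rank, which gives the brightest probe set of every array nearly 1 value. Rps23, a protein of the 40S decoding centre, was deposited at 36935 in Ang1 replicate 2 and at 7257 to 15662 in the other 8 RNAs, but its normalised log2 values ran from 13.49 to 13.66. Differences among the brightest members are thus compressed.

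**Figure D1:**
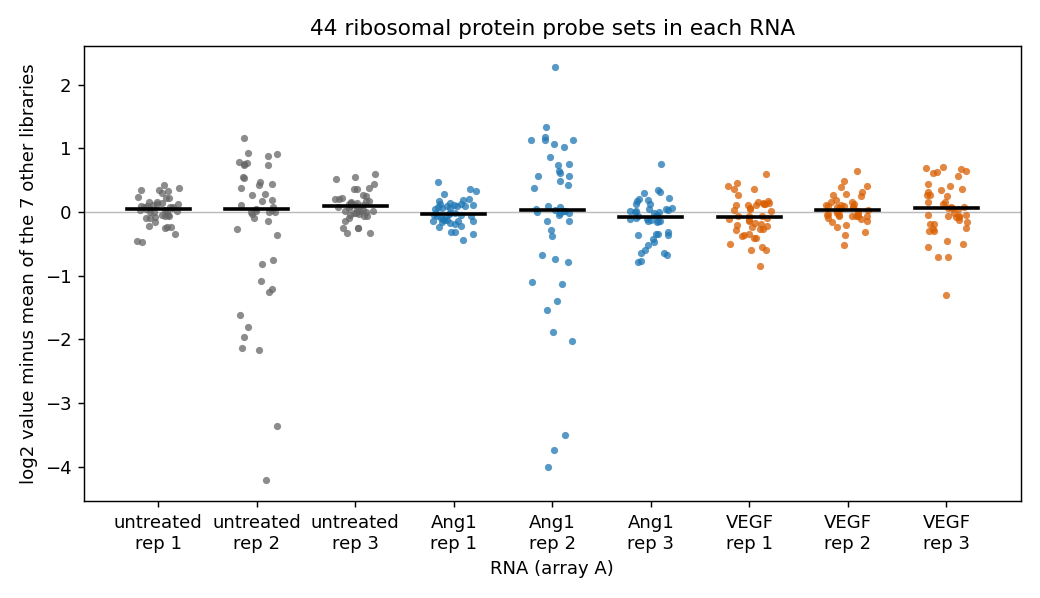
Normalised log2 values of the 44 ribosomal protein probe sets on array A in each of the 9 RNAs, each minus that probe set's mean over the 7 RNAs other than untreated replicate 2 and Ang1 replicate 2. Points are probe sets and black bars medians. The medians lie close to 0 in every RNA, while the points of those 2 RNAs spread from -4.22 to 2.29.

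In normalised values the ribosomal protein genes as a group lay close to untreated rings after VEGF. Normalisation by rank largely removes a movement common to the brightest probe sets, so this cannot show whether the group moved. The median difference over the 44 probe sets was 0.01 log2 units, against -0.01 over all 9520 tested, with 22 higher and 22 lower. No member passed the threshold in limma with Benjamini-Hochberg adjustment at 0.05, where 0% of all probe sets did. At an unadjusted p under 0.05 limma called 4 members, and 1.65% of all tested probe sets. They were Rpl12, Rps28 and Rps29, which were lower, and 1 Rpsa probe set, which was higher. In 8 members (18.2%) every VEGF value lay below every untreated value, against 4.81% of all probe sets, and in 2 every VEGF value lay above, against 3.63%. The 8 were Rps28, Rps29, Rps23, Rps6, Rpl23, Rpl26, Rpl34 and Rpl35, and the 2 were Rpl35a and the Rpsa probe set.

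The group-wide value depended on the scaling. On the deposited scale the members' median was -0.16 and that of all probe sets 0.07. After centring each array on its median the values were -0.31 and -0.08, with 9 members higher and 35 lower. The count of members lying wholly below the untreated RNAs was 2 on the deposited scale (3.70% of all probe sets) and 4 after centring (7.22%). Without the 2 libraries that stood apart it was 9 (7.89%), now with 2 untreated RNAs, the median was -0.05, and 0 members had an unadjusted p under 0.05 in limma (3.17% of all). Leaving out untreated replicate 2 or VEGF replicate 1 gave 0 such members (0.903% and 1.32% of all probe sets). Leaving out VEGF replicate 2 gave 1 (1.13%). With 1 RNA left out at a time, members lying wholly below numbered 8 to 13, against 4.8% to 11.7% of all probe sets. The most were found without VEGF replicate 3 (11.3%). The 3′ to 5′ ratio of a control compares signal at both ends of its transcript. For actin it was 8.79 to 12.4 in VEGF RNAs and 1.86 to 7.70 in untreated RNAs. For Gapdh it was 9.26 to 15.1 and 1.70 to 11.9, so that the groups overlapped. The lowest value of each was that of untreated replicate 2. Its actin 3′ signal was 145.6, against 1254 to 1919 in the 7 libraries that did not stand apart. The summed signal of 7 smooth muscle markers lay between 2938 and 3737 after VEGF and between 2315 and 6831 in untreated RNAs, and that of 7 macrophage markers 10973 to 20704 and 9083 to 15193, so that both overlapped. In normalised values 6 of 7 macrophage markers were higher after VEGF (median 0.70) and 7 of 7 after Ang1 (median 0.45). Of these markers 0 passed the adjusted threshold in limma, nor did any at an unadjusted p under 0.05. Untreated replicate 2 held them low, with a median deviation of -1.02 from the 7 libraries that did not stand apart. For Ang1 replicate 2 this median was -0.27. Marker differences without these libraries are not given here. The part of these values in the differences was not tested.

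Among 40S proteins, 13 genes were measured after the filter. After VEGF 6 were higher and 7 lower, with a median of -0.09 over 1 probe set per gene. Rps28, a small protein near the mRNA exit, was deposited at 7276, 10757 and 7794 in untreated replicates 1 to 3, at 5978, 22707 and 5742 after Ang1, and at 3245, 5843 and 8255 after VEGF. On this scale the VEGF and untreated groups overlapped, and Ang1 replicate 2 was far above the rest. After normalisation Rps28 averaged 13.06 ± 0.14 (SD, n = 3) in untreated and 12.43 ± 0.48 in VEGF RNAs, and the groups did not overlap. The difference was -0.63 ± 0.25 (SE) (adjusted p = 1.00 in limma), and -0.37 without VEGF replicate 1.

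Rps29, a zinc-binding protein of the 40S head, was deposited at 6272, 10514 and 9118 in untreated RNAs, at 6365, 29764 and 5667 after Ang1 and at 3792, 5255 and 8634 after VEGF. VEGF replicate 1 was the lowest of the 9. Normalised, all VEGF values lay below all untreated and all Ang1 values. The differences were -0.52 ± 0.23 from untreated (adjusted p = 1.00) and -0.61 ± 0.23 from Ang1 (adjusted p = 0.972) in limma. Without the libraries that stood apart the first was -0.40 ± 0.18, and without Ang1 replicate 2 the second was -0.36.

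Rps6, the 40S protein phosphorylated by S6 kinase, was deposited at 8043, 12027 and 10337 in untreated RNAs, 7746, 23866 and 7002 after Ang1, and 6241, 7474 and 11445 after VEGF. Its normalised values lay between 13.06 and 13.29 in all 9 RNAs. VEGF values lay just below the untreated ones, and the difference was -0.09 ± 0.15. Rps16 and Rps9, with differences of 0.14 ± 0.19 and 0.11 ± 0.26, and Rps3a, with 0.04 ± 0.16, likewise differed by less than their SE.

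Rpsa, the laminin receptor precursor that also sits on the 40S subunit, had 3 probe sets, and they differed. The one whose identifier ends in x_at was deposited at 2672, 537 and 1867 in untreated RNAs, 1608, 1037 and 1408 after Ang1, and 3031, 2533 and 2752 after VEGF. Its VEGF values lay above both other groups after normalisation, with a difference from untreated of 1.07 ± 0.46 (adjusted p = 1.00 in limma). The ending marks a probe set whose probes may bind other transcripts. For the brightest Rpsa probe set, which ends in s_at, the difference was 0.72 ± 0.57, and for the other one 1.57 ± 1.22. Without the libraries that stood apart the differences were 0.42 ± 0.23, -0.02 ± 0.13 and 0.21 ± 0.24 in that order, and the last pair were smaller than their SE.

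**Figure D2:**
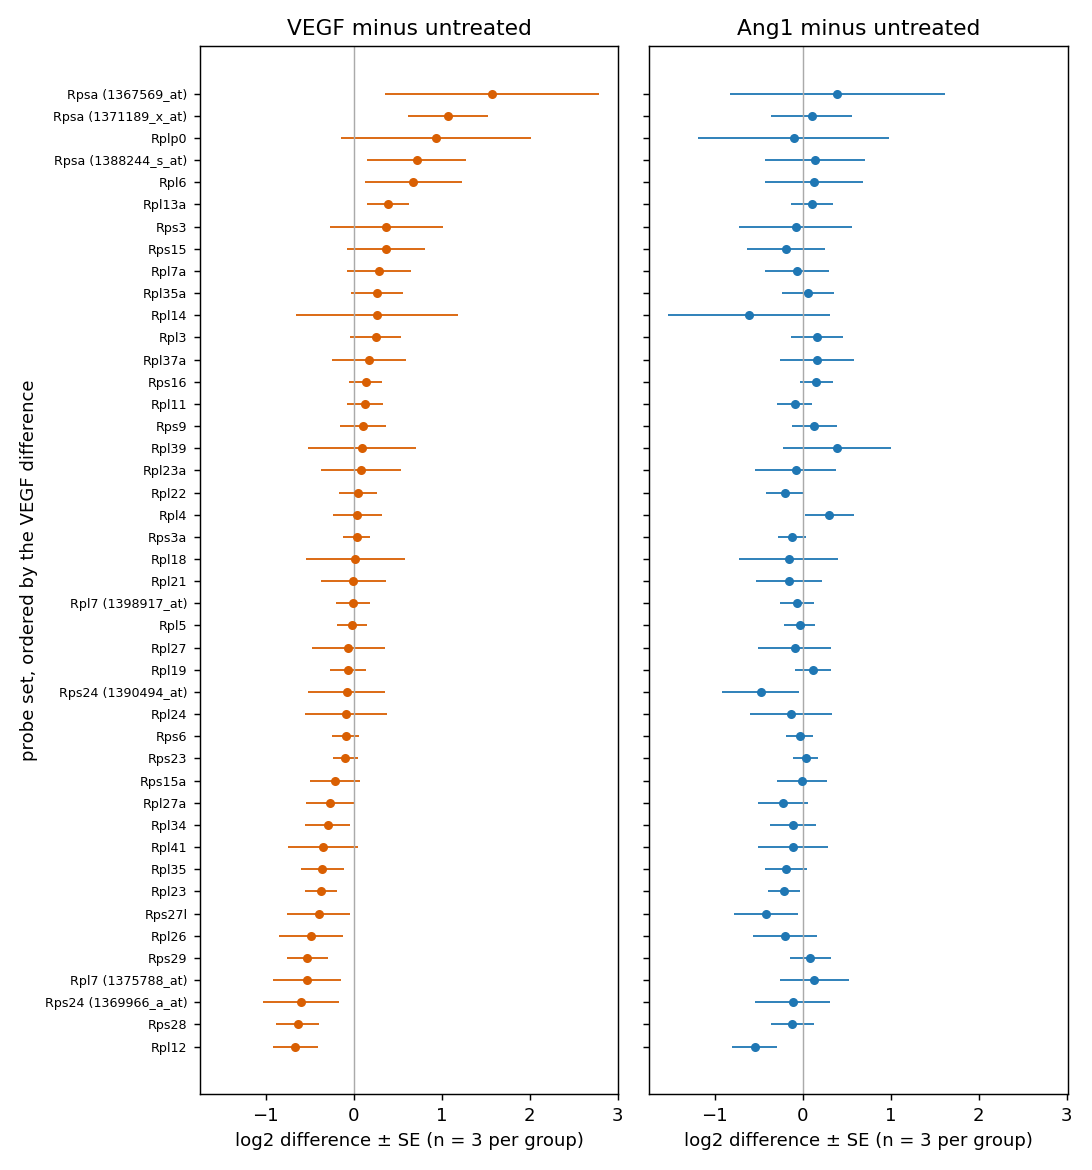
Normalised log2 differences from untreated rings, ± SE, for the 44 ribosomal protein probe sets on array A after VEGF (left) and Ang1 (right), n = 3 RNAs per group, ordered by the VEGF difference. VEGF differences run from -0.66 for Rpl12 to 1.57 for Rpsa, and the widest bars belong to members low in 2 libraries, such as Rpsa, Rplp0 and Rpl14.

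Among 60S proteins, 27 genes were measured after the filter, 14 higher and 13 lower after VEGF, with a median of 0.02. Rpl12, which helps form the base of the stalk where elongation factors bind, was lower after both treatments. It was deposited at 4003, 8113 and 6028 in untreated RNAs, at 3482, 4190 and 3220 after Ang1 and at 3152, 2618 and 4863 after VEGF. After normalisation Rpl12 averaged 12.42 ± 0.39 (SD, n = 3), 11.88 ± 0.06 and 11.76 ± 0.34 in that order, and the Ang1 values lay wholly below the untreated ones. The differences were -0.66 ± 0.25 for VEGF (adjusted p = 1.00) and -0.54 ± 0.25 for Ang1 (adjusted p = 0.953) in limma. Without the libraries that stood apart they were -0.42 ± 0.22 and -0.33 ± 0.24, and without untreated replicate 2 alone the Ang1 difference was -0.35. Both comparisons share the untreated RNAs.

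Rplp0, the protein that carries the P-stalk, was deposited at 3907, 319 and 4330 in untreated RNAs, at 4369, 301 and 3084 after Ang1 and at 2907, 3546 and 3821 after VEGF. In 7 RNAs its signal stayed between 2907 and 4369, and the 2 libraries that stood apart lay far below that range. Its VEGF difference of 0.94 ± 1.08 became -0.18 ± 0.19 without them. Rpl6, also of the 60S subunit, went from 0.68 ± 0.55 to -0.05 ± 0.13 in the same way.

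Rpl5 and Rpl11, which with 5S rRNA form a particle that also binds Mdm2, differed from untreated by -0.02 ± 0.17 and 0.13 ± 0.20 after VEGF and by -0.04 ± 0.17 and -0.09 ± 0.20 after Ang1. Rpl5 lay between 6148 and 12609 units in 8 RNAs and at 22760 in Ang1 replicate 2. Of the 6 genes of the tunnel exit measured, through which the new peptide leaves, 3 were higher and 3 lower after VEGF. Rpl23, a neighbour of the factor-binding site, was lower in each VEGF RNA than in each untreated one on the normalised scale (-0.37 ± 0.18), and so was Rpl26 (-0.48 ± 0.37). Rpl35 (-0.35 ± 0.24) and Rpl34 (-0.29 ± 0.26) were placed the same way. Rpl3, which lies close to the peptidyl transferase centre, differed by 0.25 ± 0.29.

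In Ang1-treated rings no ribosomal protein gene passed the threshold either. The median difference from untreated was -0.08 against -0.03 over all probe sets, with 16 members higher and 28 lower. In limma 0 members had an unadjusted p under 0.05, against 3.17% of all tested, and the lowest adjusted p was 0.953. Only Rpl12 lay wholly below the untreated RNAs, against 5.54% of all probe sets, and none lay wholly above, against 3.57%. Without the libraries that stood apart, with 2 RNAs in each group, 16 members lay wholly below, against 18.6% of all probe sets. Leaving out Ang1 replicate 2 alone gave 12 (12.3%) and untreated replicate 2 alone 5 (10.3%). Leaving out untreated replicates 1 or 3 or Ang1 replicates 1 or 3 gave 2 each (8.9% to 10.9%). Of the 40S genes 5 were higher and 8 lower, and of the 60S genes 8 and 19. After centring on array medians 2 members were higher and 42 lower, with a median of -0.35 against -0.23 for all probe sets. Rpl39, a small protein lining the tunnel, was deposited at 200, 1009 and 199 after Ang1 against 210, 330 and 292 in untreated RNAs. Its difference of 0.39 ± 0.61 was -0.33 without the libraries that stood apart, so Ang1 replicate 2 set its direction.

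Set directly against Ang1, VEGF RNAs had 25 members higher and 19 lower, with a median of 0.03 against 0.02 over all probe sets. At an unadjusted p under 0.05 limma called Rps29 alone, and 1.99% of all probe sets. The count was 0 without Ang1 replicate 2 (1.57% of all probe sets) or VEGF replicate 1 (1.34%). It was 2 without untreated replicate 1 or 2 or VEGF replicate 2 or 3 (1.25% to 2.46%). For Rps28 the difference was -0.52 log2 units (adjusted p = 0.972 in limma), and -0.25 without VEGF replicate 1. Array B measured Rpl24 and Rpl28 with signals of 23.3 to 262 and 31.2 to 167, and Rpl13a did not pass the filter there. Rpl24 differed from untreated by -0.45 ± 0.50 after VEGF and 0.47 ± 0.50 after Ang1, and Rpl28 by -0.35 ± 0.66 and -0.68 ± 0.66. The brighter Rpl24 probe set on array A differed by -0.09 ± 0.46 and -0.13 ± 0.46.

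**Figure D3:**
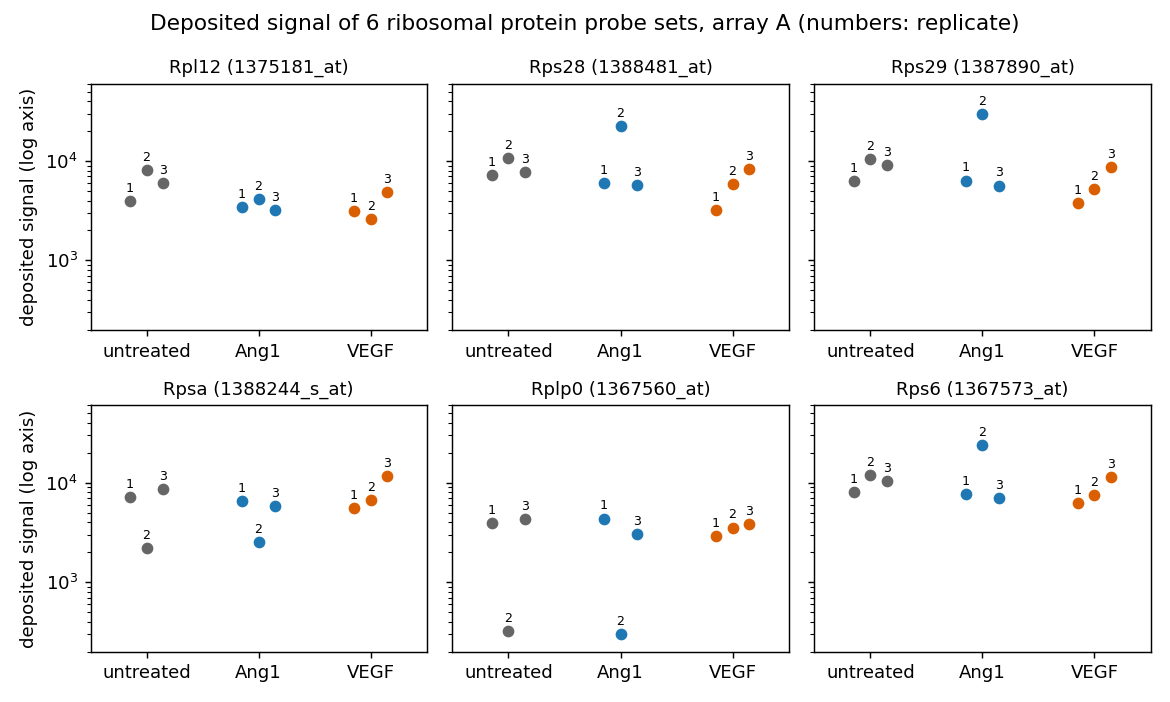
Deposited signal, on a log axis, of 6 ribosomal protein probe sets on array A in the 9 RNAs, with points numbered by replicate. Rplp0 and Rpsa drop in untreated replicate 2 and Ang1 replicate 2 (Rplp0 to 319 and 301), whereas Rps28, Rps29 and Rps6 are highest in Ang1 replicate 2 (22707, 29764 and 23866).

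The largest differences among the members lay between libraries of 1 group. Against the mean of the other 7 RNAs, 8 probe sets of 7 genes were low by at least 1 log2 unit in both untreated replicate 2 and Ang1 replicate 2. This is 18.2% of the members, against 7.09% of all tested probe sets. The lowest was an Rpsa probe set (-4.22 and -4.00), followed by Rplp0 (-3.36 and -3.73). Rps3, a 40S protein at the mRNA entry, was at -1.81 and -2.02. The 60S proteins were Rpl6 (-2.14 and -1.39), Rpl14 (-1.62 and -3.50), Rpl18 (-1.21 and -1.88) and Rpl7a (-1.08 and -1.10). The brightest Rpsa probe set was at -2.17 and -1.54. These libraries were singled out by their correlation over all probe sets, members included, so no test was made.

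Most other members kept their level or were higher there. A further 3 probe sets were low by over 1 log2 unit in 1 of the libraries. They were the x_at probe set of Rpsa (-1.96) and Rps15 (-1.25) in untreated replicate 2, and the dimmer Rps24 probe set (-1.13) in Ang1 replicate 2. Of the 44 probe sets 24 stayed within 1 log2 unit in both libraries (54.5%), near the 59.8% of all tested probe sets. By that limit 0 were high in both, against 1.05% of all. In Ang1 replicate 2 alone 8 were high (18.2%, against 13.0% of all probe sets high in that library). Rpl39 was highest at 2.29, followed by the brighter Rps24 probe set (1.34) and Rpl26 (1.17). The 2 Rps24 probe sets thus went opposite ways in that library. Across the 44 probe sets the deviations of the 2 libraries correlated with r = 0.854, and over all tested probe sets with r = 0.491. This is a description across genes measured on the same arrays. A TOP-like tract at the annotated start was found in 2 of the 7 low genes, Rplp0 and Rpl14, and in 9 of the 29 other members with a promoter. Runs of pyrimidines that begin off that base were not counted, so the remaining genes are not shown to lack a tract.

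**Figure D4:**
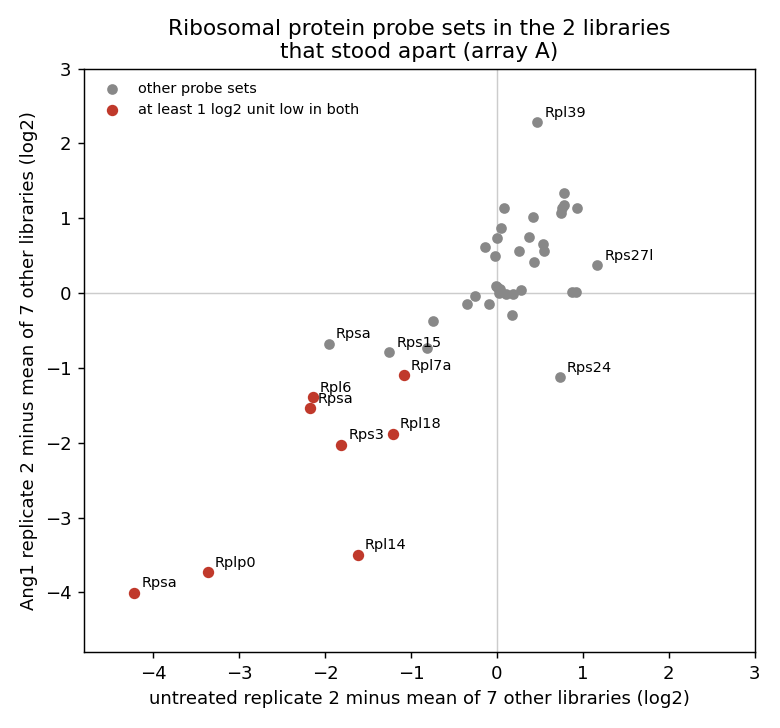
Deviation of each of the 44 ribosomal protein probe sets from its mean over the other 7 RNAs, in untreated replicate 2 (horizontal) and Ang1 replicate 2 (vertical), in normalised log2 units on array A. Red points mark the 8 probe sets low by at least 1 unit in both, from Rpl7a (-1.08 and -1.10) to Rpsa (-4.22 and -4.00).

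Over the other 7 RNAs the normalised SD had a median of 0.30 among members and 0.31 among all tested. It ran from 0.06 to 0.60 among members and up to 1.31 among all, and lay under 0.2 in 14 of 44 members (31.8%) against 1581 of 9520 (16.6%). Normalisation by rank compresses differences among the brightest probe sets, where many members lie. The sets were not matched for brightness, so these shares cannot show that members were steadier. The members' median deviation ran over the 9 arrays from -0.45 to 0.71 on the deposited scale and from -0.10 to 0.08 after normalisation by rank. A movement common to the brightest probe sets is largely removed by that step, so none can be read from the normalised values. Over the 9 arrays, probe sets of the same gene correlated at 0.73 to 0.97 for Rpsa, at 0.56 for Rpl7 and at -0.48 for Rps24, whose second probe set was dim (116 to 272 units). The 2 Rpl14 probe sets correlated at -0.48, and the dimmer of them (9.9 to 91.6 units) had not passed the filter. The named genes whose values most resembled the members' median over the 9 arrays were Ndufb2 (r = 0.90), Nid1 (r = 0.90) and Ssbp1 (r = 0.87). They were the best of 7960 probe sets compared, and that normalised median moved only from -0.10 to 0.08. Members themselves correlated with it at -0.595 to 0.795, above 0 in 24 of 44, so it does not stand for all of them. A shared pattern was not tested.

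Other genes of ribosome production and translation showed no difference past the adjusted threshold. Of 14 measured elongation factors and other TOP mRNAs, 10 were higher and 4 lower after either treatment. At an unadjusted p under 0.05 limma called 0 after VEGF (1.65% of all probe sets) and 1 after Ang1 (3.17%), Naca of the nascent chain complex (-0.63 ± 0.28, adjusted p = 0.953). Of 29 ribosome biogenesis genes 15 were higher and 14 lower after VEGF and 10 and 19 after Ang1, and of 7 RNA polymerase I genes 3 and 4, and 1 and 6. Of 15 genes of the mTORC1 and Myc axis 9 were higher and 6 lower after VEGF and 7 and 8 after Ang1. Rps6kb1, which encodes S6 kinase 1, was at -1.68 ± 0.59 after Ang1 (adjusted p = 0.953 in limma). It was the 1 gene of this list at an unadjusted p under 0.05 there (3.17% of all probe sets). Rps6kb1 deviated by 1.31 in untreated replicate 2 and -2.10 in Ang1 replicate 2. After VEGF it was at -1.07 ± 0.59, with every VEGF value below every untreated value, against 4.81% of all probe sets. Both comparisons share the untreated RNAs.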

How the data were processed

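Each deposited value is a linear intensity of 1 probe set, made by the authors with MAS5 per the submitters' processing notes; its version and settings are not given in the sources used here. MAS5 scales whole arrays, and Ang1 replicate 3 on array B had a trimmed mean of 94.8 where the others had about 250.1. All 18 samples were used and no detection calls.

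Control probe sets (57 per array type) were removed, log2(signal + 16) was quantile normalised within an array type, and probe sets with a mean below the 40th percentile were dropped, which left 9520 on array A and 9166 on array B. limma 3.58.1 in R 4.3.3 fitted the 3 groups over 9 arrays with an intensity trend and no block, with Benjamini-Hochberg adjustment at 0.05 over all kept probe sets. The code was tested on simulated data with the means and spreads of array A and 200 probe sets changed after VEGF. At the adjusted threshold it recovered 0.5% of changes of 1 log2 unit, 67% of 2 units and 96% of 4 units. A member that missed the threshold is thus not shown to be unchanged. The number of arrays limits the precision. Symbols came from the platform annotation; probe sets with several symbols named no gene.

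The members and lists were chosen with earlier results of these data known. By rule the text names Rplp0, Rpsa, Rps6, Rpl5, Rpl11, Rpl3, the members with the smallest p in each direction and those of array B; values of other members, such as Rps16, Rps9, Rps3a, Rpl26 and Rpl34, were chosen after they were seen. Where a gene has several probe sets, the brightest stands for it in counts of genes. Alternatives were other scalings, pseudocounts and filters, array weights, a replicate block, no trend, and leaving out RNAs.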

Additional observations from a re-analysis of the deposited data

Results flagged for a closer look

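The 5S rRNA control probe set, which is no part of the comparisons, gave 433.1 units of deposited signal in Ang1 replicate 2 on array A and 656.8 on array B. In untreated RNAs it lay between 13.4 and 61.9 (array A) and between 171.3 and 206.4 (array B), so the signal lay above the controls on both array types. This RNA is 1 of the 2 in which the ribosomal protein probe sets split, and its members held 7.33% of the signal of array A, against 3.33% to 5.14% in the other 8 RNAs. The part of this signal in those values was not tested.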

How the results depend on the processing

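Of 177 values of the 15 summary results under other settings, 154 lay close to the reported one, within 1.5 times for a count and within the pooled SD of the arrays' median member for a median (0.053 on array A, 0.44 on array B). The 41 values of single probe sets kept their sign in 370 of 403. Counts past the adjusted threshold over all probe sets were 0 in each comparison. With array weights they were 6 for Ang1 and 24 for VEGF against Ang1 on array A. On array B they were 2 and 8. On the deposited scale, where 1 array of type B was scaled otherwise, array B gave 117 for Ang1 and 25 for VEGF against Ang1.

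The members' median on array A was -0.16 (VEGF) and -0.15 (VEGF against Ang1) as deposited, -0.31 (VEGF) and -0.35 (Ang1) when centred on array medians, and -0.053 (VEGF) without both libraries that stood apart. Members at an unadjusted p under 0.05 numbered 4 for VEGF, 0 for Ang1 and 1 for VEGF against Ang1. With the share of all probe sets in brackets, they were for VEGF 0 as deposited (2.25%), 2 when median-centred (2.28%), 2 without the trend (1.68%) and 0 without both libraries (3.17%). For Ang1 they were 1 when median-centred (5.39%), 5 with array weights (11.9%) and 1 of 75 with probe sets of several symbols (3.17%), a setting chosen after seeing the data. For VEGF against Ang1 they were 0 as deposited (1.51%), 7 with array weights (18.3%), 0 without the trend (2.04%) and 4 without both libraries (3.29%).

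Signs reversed as follows. With array weights Ang1 differences were 0.022 for Rpl11, -0.30 for Rpl39, 0.10 for Rpl5 and 0.44 for Rplp0, VEGF differences 0.12 for Rpl5 and 0.044 for Rpl28, and VEGF against Ang1 gave -0.00676 for Rpl22. As deposited Ang1 gave 0.028 for Rpl35, 0.12 for Rpl5, 0.12 for Rps6 and -0.17 for Rpsa, VEGF -0.082 for Rpl11, and VEGF against Ang1 -0.16 for Rpl22. Median-centred Ang1 gave -0.015 for Rpl19, -0.12 for Rpl3, -0.24 for Rpl4, -0.23 for Rps16 and -0.48 for Rpsa, VEGF -0.23 for Rpl11, -0.097 for Rpl3 and -0.090 for Rpl35a, and VEGF against Ang1 -0.00287 for Rpl22. Without both libraries VEGF gave -0.00397 for Rpl3, 0.061 for Rpl5, -0.050 for Rpl6, -0.18 for Rplp0 and -0.015 for Rpsa. Ang1 then gave -0.33 for Rpl39, 0.046 for Rpl5, 0.027 for Rplp0 and -0.088 for Rpsa, and VEGF against Ang1 -0.26 for Rpl28 and 0.00613 for Rps24. The cause was not tested.

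Leaving out 1 RNA at a time moved the members' median on array A from -0.070 to 0.038 for VEGF, from -0.081 to 0.00555 for Ang1 and from -0.071 to 0.10 for VEGF against Ang1. On array B the VEGF median ran from -0.68 to 0.20, that of Ang1 from -0.29 to 0.47, and that of VEGF against Ang1 from -1.16 to -0.11. Members at an unadjusted p under 0.05 in limma on array A numbered 0 to 4 for VEGF (0.903% to 3.82% of all probe sets). They numbered 0 to 1 for Ang1 (1.99% to 6.2%) and 0 to 2 for VEGF against Ang1 (1.25% to 6.04%). For Ang1 the single values ran from -0.21 to 0.011 (Rpl11), -0.062 to 0.21 (Rpl19), -0.085 to 0.43 (Rpl3), -0.36 to 0.027 (Rpl35), -0.50 to 0.83 (Rpl39), -0.10 to 0.036 (Rpl5), -1.23 to 1.17 (Rplp0) and -0.59 to 0.57 (Rpsa). For VEGF they ran from -0.00131 to 0.20 (Rpl11), -0.87 to 0.20 (Rpl24), -0.59 to 0.36 (Rpl28), -0.087 to 0.091 (Rpl5), -0.062 to 1.09 (Rpl6), -0.21 to 1.51 (Rplp0) and -0.018 to 1.12 (Rpsa). For VEGF against Ang1 they ran from -0.26 to 1.03 (Rpl28) and -0.73 to 0.00486 (Rps24). Without untreated replicate 2 the VEGF values of Rpl5, Rpl6, Rplp0 and Rpsa changed sign.

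Same-numbered RNAs deviated together in 7 of 9 pairs on array A and in 7 of 9 on array B (correlations -0.15 to 0.49 and -0.21 to 0.29, with a limit of 0.1), and 9 of 9 libraries correlated best with one of their own number. By design the groups share animals, but which number is which animal is only a hint from these correlations. With the replicate block members at p under 0.05 numbered 3 for VEGF against Ang1 (4.29% of all probe sets), 4 for VEGF (3.09%) and 0 for Ang1 (4.36%). Array B gave no member value with a filter at the 60th percentile.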
